A study of Mus musculus with 2 samples.

Results

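Natural killer (NK) cells are innate lymphocytes that kill tumour and infected cells without a rearranged antigen receptor. They release granules that hold perforin and granzymes, secrete interferon gamma and chemokines such as XCL1 and CCL5, and are held in check by inhibitory receptors for MHC class I, which in mice are mostly Ly49 molecules of the Klra gene family. The T-box factors EOMES and T-bet (Tbx21) direct their maturation, and IL-15, read through the IL-2 receptor beta chain (Il2rb), keeps them alive.

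The NK cells described here are 98 of 12018 cells from 4T1 mammary tumours, a mouse breast carcinoma line grown in the fourth mammary fat pad of female BALB/c mice that were 8 weeks old. A cell was taken as an NK cell if it held at least 3 molecules of Eomes and Klra7 together, at most 1 molecule of Cd3d, Cd3e and Cd3g, at most 1 of Cd8a and Cd8b1, at most 1 of C1qa and C1qb, and less than 10% of its molecules as S100a8. The measured values of these genes chose the members, so differences between NK cells and other cells are descriptions and carry no test.

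Transcripts of a fixed immune panel were counted in single cells on the BD Rhapsody platform, and 396 genes were counted in all cells. The anti-PD-1 pool was 1 sample that held cells of 2 arms, anti-PD-1 alone and anti-PD-1 with anti-Siglec-E, under sample tags 3 and 4. The pool without anti-PD-1 was the other sample and held the isotype control and anti-Siglec-E alone under tags 1 and 2. Every arm had 6 mice, was treated from day 7 at a tumour volume of about 70 mm3, and gave 2 tumours for single cells, in which EPCAM-positive cells were mixed with EPCAM-negative cells at 1 to 4. Which of the 2 arms of a pool a tag belongs to is not stated, and values are therefore listed tag by tag. Each pool was 1 sample, tags are not replicates, and no test between pools is possible. Treatment and sample cannot be told apart, and tag 1 was also counted in a separate run against another reference than tags 2, 3 and 4.

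NK cells numbered 59 in tag 3, 12 in tag 4, 12 in tag 1 and 15 in tag 2. They held a median of 740 molecules of shared genes per cell in tag 3 and 1071 in tag 4, against 681 in tag 1 and 978 in tag 2. Over all 98 NK cells the median was 773 molecules, with a range of 366 to 13849. The cell labels of the 2 samples overlapped in 37 cases, and no NK cell of one tag shared its label with an NK cell of another. Intervals below are 95% limits that cover counting error only.

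Several Ly49 receptor genes had large folds over other cells, given below, and the rule itself used Klra7. The Ly49 genes are close copies, so their ends are shown first. Below are the last 120 coding bases of 4 family members, 5′ to 3′, from GENCODE M21 on GRCm38. All 4 lie on the minus strand of chromosome 6, Klra3 at chr6:130323289-130337574, Klra6 at chr6:130013033-130026954, Klra7 at chr6:130218605-130233322 and Klra1 at chr6:130363917-130386874. Capitals mark the bases that differ from Klra3.
Klra3: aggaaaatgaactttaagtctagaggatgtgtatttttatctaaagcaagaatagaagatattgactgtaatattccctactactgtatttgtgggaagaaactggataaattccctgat
Klra6: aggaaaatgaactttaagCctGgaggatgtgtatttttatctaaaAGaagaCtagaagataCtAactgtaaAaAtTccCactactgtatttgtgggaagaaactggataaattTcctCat
Klra7: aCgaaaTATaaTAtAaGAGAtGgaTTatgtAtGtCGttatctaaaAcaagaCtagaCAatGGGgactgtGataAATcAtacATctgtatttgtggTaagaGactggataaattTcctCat
Klra1: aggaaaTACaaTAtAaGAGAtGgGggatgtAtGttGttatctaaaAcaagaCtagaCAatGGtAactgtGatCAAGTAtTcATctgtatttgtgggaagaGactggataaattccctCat
Over this stretch Klra6 differed from Klra3 at 13 bases, Klra1 at 34 and Klra7 at 36. Over the whole coding sequence Klra3 and Klra6 were 91.0% identical and Klra1 and Klra7 were 87.8% identical, while Klra3 and Klra7 were 80.1% identical. The reference is of the C57BL/6 strain, Ly49 gene content differs between mouse strains, and the part of each transcript that the panel reads is not given in the sources used here. Counts of single Ly49 genes are therefore uncertain.

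Few NK cells lay at the edge of the rule. Of the 98 members, 13 held exactly 3 molecules of Eomes and Klra7, and 10 of these 13 held Gzma, the gene of the protease granzyme A. A further 24 cells met every other limit with exactly 2 molecules, and 4 of these 24 held Gzma. The members just inside had a median of 878 molecules, against 3523.5 in the cells just outside, and their median of Lgals1, a galectin gene on the list of 4T1 tumour markers, was 14 molecules against 529. Of 182 cells with at least 3 molecules of Eomes and Klra7, 73 were left out with more than 1 Cd3 molecule, 46 with more than 1 Cd8 molecule, 11 with more than 1 C1q molecule and 17 by their S100a8, and a cell could fail several limits. The highest S100a8 share of a member was 9.02%, and the lowest share among the 7 cells kept out by S100a8 alone was 10.4%. No member held a Cd8 molecule, 92 held no Cd3 molecule and 95 held no C1q molecule.

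Of the 4 genes that mark the class, at least 3 were found in 76 of 98 members and all 4 in 20, while Eomes and Gzma were found together in 88. Eomes was found in 97 of 98 NK cells, at 5097 counts per 1000000 shared-gene molecules (CPM) in tag 3 and 4504 in tag 4, against 7367 in tag 1 and 6274 in tag 2, so both tags of the anti-PD-1 pool were lower by less than 1.5-fold at the nearest tags. Its gene lies at chr9:118478212-118486132 on the plus strand of GRCm38. Klra7, which encodes the inhibitory receptor Ly49G, was found in 40 members and was higher in both tags of the anti-PD-1 pool, at 3199 and 2652 CPM, against 351 and 762 CPM in the pool without anti-PD-1. The 7 large Gzmb-rich cells described below held 36.4% of its molecules. It was found in 44.1% and 41.7% of members in tags 3 and 4, against 25% and 40% in tags 1 and 2. Among the 82 members with at most 2000 molecules these shares overlapped, at 43.4% and 37.5% against 30% and 54.5%. The rule used both genes.

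Gzma and Xcl1 were not used by the rule. Gzma was found in 88 members, at 40980 and 22687 CPM in tags 3 and 4, against 23446 and 16332 CPM in tags 1 and 2, and the pools overlapped. Xcl1, the gene of a chemokine that attracts cross-presenting dendritic cells, was found in 61 members, at 10747 and 8418 CPM in tags 3 and 4, against 15904 and 4877 CPM in tags 1 and 2, again with overlap. The share of cells with a Gzma molecule was 89.8% (82.03 to 95) in NK cells and 1.496% (1.22 to 1.81) in 6820 S100a8-rich cells, which hold at least 10% of their molecules as this neutrophil gene and should lack Gzma. The S100a8-rich cells were deeper, with a median of 1493 molecules. With every cell thinned to 500 molecules, which left out 14 NK cells and 274 S100a8-rich cells, the shares were 88.1% and 0.626%.

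Beside all other cells of the tumours, the largest folds of NK cells were those of Eomes and of Ly49 receptor and cytotoxic genes. Among genes found in at least 10% of NK cells, Klra1 (Ly49A) had the largest fold over the other cells at 419, followed by Klra7 at 324 and Eomes at 178. Prf1, which encodes perforin, stood at 96.0-fold, Klra3 at 92.2, Klra21 at 86.5, Klra6 at 82.6 and Gzma at 61.0. Txk, a Tec-family kinase, Klrg1, an inhibitory lectin receptor of mature NK cells, Gzmb, Ccl5, Xcl1, Tbx21 and Irf8 followed at 58.2, 53.0, 42.8, 42.7, 40.1, 28.4 and 26.8-fold. These folds are between summed levels and rest partly on the genes the rule used. Klra7 and Eomes chose the members, and Klra1 is a close copy of Klra7. The Ly49 genes Klra3, Klra21 and Klra6, which the rule did not use, stood below Prf1. The most abundant transcript was H2-K1, a classical MHC class I gene, with 11.5% of all molecules in NK cells; its reads may be shared with other class I genes.

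**Figure D1:**
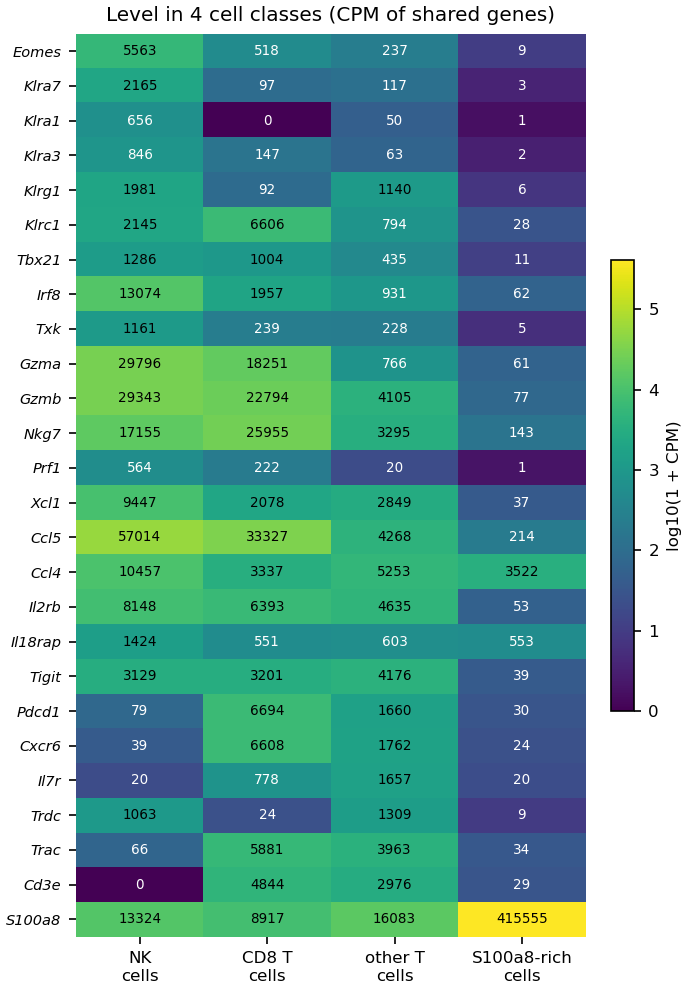
Level of 26 genes, as CPM of the molecules of shared genes summed over the 4 tags, in 98 NK cells, 285 CD8 T cells, 407 other T cells and 6820 S100a8-rich cells. Colour gives log10 of 1 + CPM, and the number in each field is the CPM. NK cells had the most Eomes, Irf8 and Xcl1 of the 4 classes and little Pdcd1 or Cxcr6.

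CD8 T cells (285 cells with at least 3 Cd3 and at least 3 Cd8 molecules and the same C1q and S100a8 limits) were set beside NK cells. Gzma was found in 89.8% of NK cells and 26.3% of CD8 T cells. Gzmb stood at 29343 CPM in NK cells and 22793.5 CPM in CD8 T cells, and Prf1 at 564 and 222 CPM. Nkg7, a granule membrane protein gene, stood at 17155 CPM in NK cells and 25955 CPM in CD8 T cells. The coinhibitory receptor gene Tigit stood at 3129 CPM in NK cells and 3201 CPM in CD8 T cells. These NK levels are sums in which 16 large cells, described below, held 57.4% of the molecules. In the other 82 members Nkg7 stood at 26482.5 CPM, Gzmb at 13395 CPM, Prf1 at 355 CPM and Tigit at 5981 CPM. Beside the same CD8 T cell values, Nkg7 was then close, Gzmb lower, and Prf1 and Tigit higher. The CD8 T cell values still include 58 of 285 cells above 2000 molecules, so the size limit was applied to the NK cells alone. Irf8, a transcription factor of myeloid and lymphoid cells, was at 16176 and 16037 CPM in NK cells of tags 3 and 4 and at 8244 and 7696 CPM in NK cells of tags 1 and 2, and every one of these values lay above the CD8 T cell values of 1968, 2105, 1742 and 1620 CPM in the same tags.

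The PD-1 gene itself was almost absent from NK cells. Pdcd1 stood at 79 CPM (41 to 138) in NK cells and 6694 CPM (6458 to 6935) in CD8 T cells, and its only NK cell with a molecule was 1 of 98, in tag 4. Cxcr6, a receptor of tissue-resident lymphocytes, stood at 39 CPM (14 to 86) in NK cells and 6608 CPM in CD8 T cells. Il7r, the IL-7 receptor gene, was at 20 CPM in NK cells and 778 CPM in CD8 T cells. Of the markers of type 1 innate lymphoid cells that were listed, 3 were on the panel (Il7r, Cxcr6 and Tnfsf10) and 0 of them reached 30 molecules over all NK cells. Klrc1, which encodes the inhibitory receptor NKG2A, was lower in NK cells, at 2145 CPM against 6606 CPM in CD8 T cells.

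T cell receptor genes were unequal in NK cells. Trac, the alpha constant gene, was at 66 CPM in NK cells and 5881 CPM in CD8 T cells, and Trbc2, a beta constant gene, at 820 CPM and 14604 CPM. Trbc1, the other beta constant gene, was found in 88 of 98 NK cells at 6494 CPM, against 9932 CPM in CD8 T cells and 63.7 CPM in S100a8-rich cells. Within NK cells it stood at 7520 and 8292 CPM in tags 3 and 4, against 4736 and 4293 CPM in tags 1 and 2. Trdc, the delta constant gene, which NK cells are known to transcribe without a rearranged receptor, was found in 54 of 98 NK cells at 1063 CPM, against 24 CPM in CD8 T cells. In the 407 other T cells Trdc was at 1309 CPM, held by 10.8% of cells. Of 13 T cell markers on the panel, Cd3e, Cd4, Cd8a, Cd8b1, Cd5 and Foxp3 had 0 molecules in all 98 members. The list summed to 3781 and 1557 CPM in tags 3 and 4 against 2807 and 1854 CPM in tags 1 and 2. The rule itself limited Cd3d, Cd3e, Cd3g, Cd8a and Cd8b1, so their low counts were set by the choice of members. Trbc1 was not on this list, and the sums leave it out.

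The members were not of one kind, and 16 of 98 held more than 2000 molecules. These 16 cells held 57.4% of all NK cell molecules and 82 members held the other 42.6%. The 82 members had between 366 and 1988 molecules, and all of them held Il2rb and Nkg7. Gzma was found in 79 of the 82 at a median of 34.5 molecules, Ccl5 in 81 at a median of 86.5, and Irf8 in all 82 at a median of 18. The split at 2000 molecules, the kinds below and the genes named for them were chosen after the values had been seen.

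**Figure D2:**
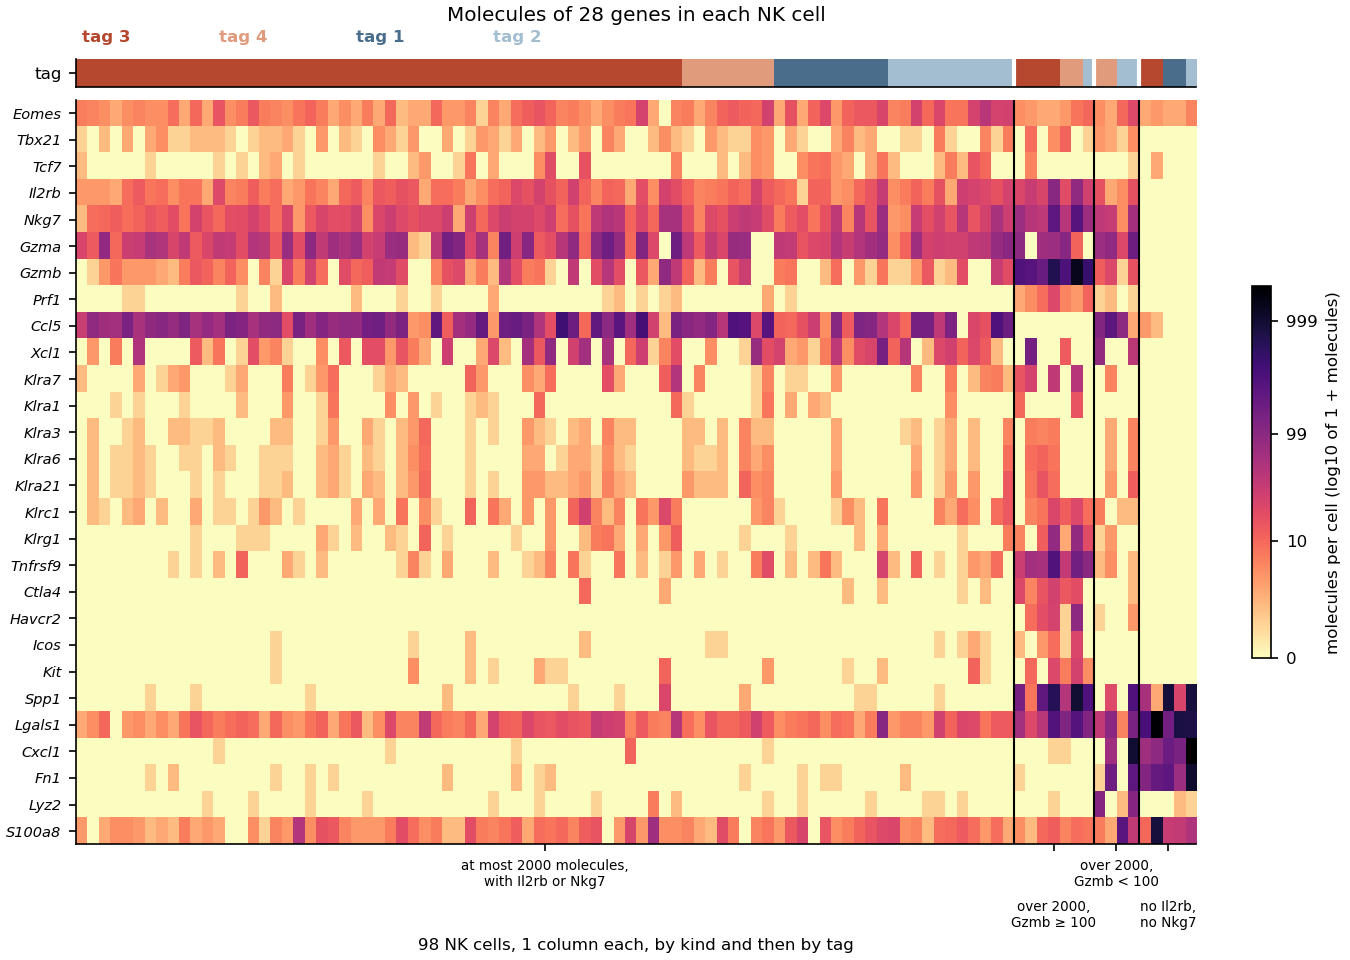
Molecules of 28 genes (rows) in each of the 98 NK cells (columns), on a log10 scale of 1 + molecules, with the tag of each cell in the bar above. Black lines separate 82 members with at most 2000 molecules, 7 large cells with at least 100 Gzmb molecules, 4 other large cells, and 5 cells with no Il2rb and no Nkg7. Ccl5 is empty in the 7 large Gzmb-rich cells and filled in almost every one of the 82.

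A group of 7 large cells was rich in granzyme B and had no Ccl5. They had 2185 to 7564 molecules and came from tag 3 (4 cells), tag 4 (2 cells) and tag 2 (1 cell), with 0 from tag 1. Gzmb, which encodes granzyme B, ranged from 183 to 1339 molecules among them and stood at 127580 CPM, against 13395 CPM in the 82 members. Ccl5 had 0 molecules in all 7 cells, while 81 of the 82 smaller members held it at 127002 CPM.

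The same 7 cells held more of some receptors and less of others. Of 5 inhibitory receptors with at least 30 molecules in the 7 and the 82 together, 3 stood higher in the 7 and 2 lower, and of 7 costimulatory receptors 3 stood higher and 4 lower. Tigit stood at 1472 CPM in the 7 cells, against 5981 CPM in the 82, Cd274 at 790 against 1403 CPM, Cd44 at 503 against 1464 CPM, Tnfrsf18 at 862 against 1619 CPM and Cd69 at 4272 against 5179 CPM. Tnfrsf9, the gene of the costimulatory receptor 4-1BB, was found in 7 of 7 at 26600 CPM, against 2559 CPM in the 82 members. Ctla4, an inhibitory receptor gene, was found in 6 of 7 at 3590 CPM against 308 CPM. Havcr2, which encodes TIM-3, was found in 5 of 7 at 5169 CPM and in 0 of the 82. Klrg1 was at 7646 CPM against 1295 CPM, and Prf1 at 2118 CPM against 355 CPM. Spp1, which encodes the secreted protein osteopontin, had the largest fold among the 10 leading genes, at 84144 CPM against 540 CPM, with 8 to 985 molecules in each of the 7 cells. These cells held Il2rb and Nkg7 in every case and Trbc1 in every case, and Eomes at 3 to 10 molecules. The 7 cells held 79.5% of all Gzmb molecules of NK cells, 96.6% of Havcr2, 81.97% of Ctla4 and 80.9% of Tnfrsf9. They were chosen by size and Gzmb, and their part of any other measure is a description. Whether they are pairs of cells was not tested.

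A second group of 5 cells held no Il2rb, no Nkg7, no Gzma, no Gzmb and no Klra7. They entered the class with 3 to 6 Eomes molecules. They had 3792 to 13849 molecules, came from tag 3 (2 cells), tag 1 (2 cells) and tag 2 (1 cell), and held 25.2% of all molecules of the class. Cxcl1, a neutrophil-attracting chemokine gene, was at 65806 CPM against 231 CPM in the 82 members, Fn1, the fibronectin gene, at 44304 CPM against 293 CPM, and Lgals1 at 104696 CPM against 15338 CPM. Epcam, the epithelial adhesion gene counted in tags 2, 3 and 4 alone, had 145, 78 and 261 molecules in the 3 of these cells from those tags. They are called NK cells here only because the rule takes them.

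The remaining 4 large cells mixed NK genes with genes of other cells. They had 3271 to 10534 molecules, with 2 in tag 4 and 2 in tag 2, and held Gzma, Nkg7 and Ccl5 in all 4. One cell of tag 2 held 98.1% of all Arg1 molecules of the class, 576 molecules, with 1012 molecules of Cxcl1. Lyz2, a lysozyme gene of macrophages and neutrophils, was at 10474 CPM in the 4 cells against 339 CPM in the 82 members. No doublet caller was run, and whether these 4 cells are pairs of cells was not tested. The 82 members were not free of genes of other cells. In tag 3, members with 1363 and 1572 molecules held 8 and 15 molecules of Csf3r, a gene on the list of neutrophil markers. They held 23 and 68 molecules of S100a8, against a median of 6 in the 82.

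The Ly49 genes were found in unequal combinations. Of the 98 members, 73 held at least 1 molecule of any of 7 Ly49 genes, 53 held Klra3, Klra6 or Klra21, and 39 held all 3 of these. Across the 98 cells Klra6 and Klra21 counts had a Pearson r of 0.96, Klra3 and Klra6 of 0.92, and Klra3 and Klra21 of 0.89. Klra1 and Klra7 had an r of 0.58, while Klra6 and Klra7 had an r of 0.19. These correlations are across cells that share libraries and differ in depth. Because Klra3 and Klra6 are close copies, how far 1 transcript was counted under more than 1 name was not tested.

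**Figure D3:**
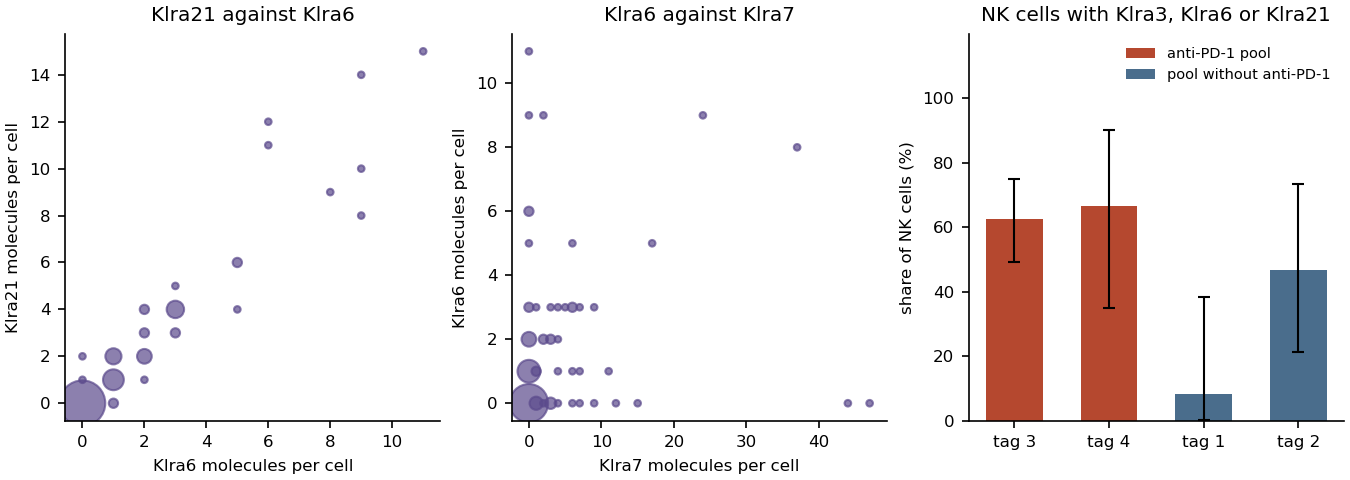
Left and centre, molecules of Klra21 against Klra6 and of Klra6 against Klra7 in each of the 98 NK cells, with point area proportional to the number of cells at that value. Right, share of NK cells with at least 1 molecule of Klra3, Klra6 or Klra21 per tag, with exact 95% binomial intervals. Tags 3 and 4 lie at 62.7% and 66.7%, and tags 1 and 2 at 8.33% and 46.7%.

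The Klra3, Klra6 and Klra21 group was found in more NK cells of the anti-PD-1 pool. It was held by 37 of 59 NK cells in tag 3 (62.7%, 49.1 to 74.96) and 8 of 12 in tag 4 (66.7%, 34.9 to 90.1), against 1 of 12 in tag 1 (8.33%, 0.211 to 38.5) and 7 of 15 in tag 2 (46.7%, 21.3 to 73.4). The intervals of tags 3 and 4 overlap that of tag 2. In the 82 members the shares were 64.2% and 87.5% in tags 3 and 4, against 10% and 54.5% in tags 1 and 2. Klra3 was found in 0.220% of S100a8-rich cells. The median molecules per NK cell, given above, were lowest in tag 1, and the part of depth or of the separate count of tag 1 in its low share was not tested.

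NK cells with and without Klra7 were set side by side, with no test. Among the 82 members, 34 held both Eomes and Klra7 and 47 held Eomes without Klra7, and in tag 3 their median molecules were 676.5 and 725. Of 65 named genes with at least 30 molecules in these cells, 5 stood at least 2-fold higher with Klra7 and 4 at least 2-fold lower. Klra1 was at 2264 CPM with Klra7 and 363 CPM without it, and in tag 3 alone at 2688 and 304 CPM. Ccl3, a chemokine gene, was at 1680 CPM with Klra7 and 3439 CPM without it, and in tag 3 at 2091 and 4693 CPM. Ccl9, a chemokine gene, was at 1461 CPM with Klra7 and 280 CPM without it, Il4ra at 4017 and 1985 CPM, Cd14 at 694 and 2740 CPM and Il1rn at 657 and 2656 CPM. Closer to each other were Gzma, which was at 64376 and 57875 CPM, Ccl5 at 130139 and 130651 CPM, and Il2rb at 13657 and 13616 CPM. Of the molecules in the 82 members, the highest cell held 56% for Ccl9, 38.9% for Il1rn, 36.8% for Cd14 and 9.57% for Il4ra. Among cells with and without Klra7, Ccl9 was found in 17.6% and 8.51%, and Il4ra in 76.5% and 66.0%. Cd14 was found in 32.4% and 36.2%. Il1rn was found in 35.3% and 25.5%, the opposite direction to its level. How far single cells set these levels was not tested. Only 1 member had Klra7 without Eomes.

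The first comparison of pools concerns the share of NK cells among the cells counted. EPCAM-positive and EPCAM-negative cells had been mixed at 1 to 4, so these shares are not numbers of NK cells per tumour. Of all cells, NK cells made up 0.891% (0.679 to 1.15) in tag 3 and 0.826% (0.427 to 1.44) in tag 4, against 0.494% (0.255 to 0.861) in tag 1 and 0.990% (0.555 to 1.63) in tag 2. The pools overlapped, with means of 0.859% and 0.742%, and a difference of 0.117 percentage points with a counting interval of -0.315 to 0.531.

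Of lymphocytes, taken as NK, CD8 T, other T and B cells, NK cells made up a smaller share in the anti-PD-1 pool. The share was 12.04% of 490 lymphocytes in tag 3 (9.29 to 15.3) and 6.25% of 192 in tag 4 (3.27 to 10.7), against 16% of 75 in tag 1 (8.55 to 26.3) and 18.8% of 80 in tag 2 (10.9 to 29.0). Both tags of the anti-PD-1 pool lay below both of the other pool, with means of 9.15% and 17.4%, a difference of -8.23 points and a counting interval of -15.8 to -2.17. Without tag 4 the difference was -5.33 points (-13.1 to 0.963) and without tag 2 it was -6.85 points (-17.3 to 1.08), and both intervals then included 0. With every cell thinned to 1000 molecules, which left 14 and 4 NK cells in tags 3 and 4 and 1 and 4 in tags 1 and 2, the pools overlapped and the difference was -1.64 points.

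CD8 T cells, counted in the same lymphocyte total, differed between pools in the other direction. They made up 34.1% and 41.1% of lymphocytes in tags 3 and 4, against 29.3% and 21.25% in tags 1 and 2. Of all cells they made up 2.52% and 5.44% in tags 3 and 4, against 0.905% and 1.122% in tags 1 and 2. Other T cells and B cells were also higher among all cells in both anti-PD-1 tags, with means of 4.89% against 2.18% and 0.582% against 0.247%. Among lymphocytes other T cells were lower, at 47.6% against 51.5%, and B cells overlapped. There were 0.353 and 0.152 NK cells per CD8 T cell in tags 3 and 4, against 0.545 and 0.882 in tags 1 and 2.

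**Figure D4:**
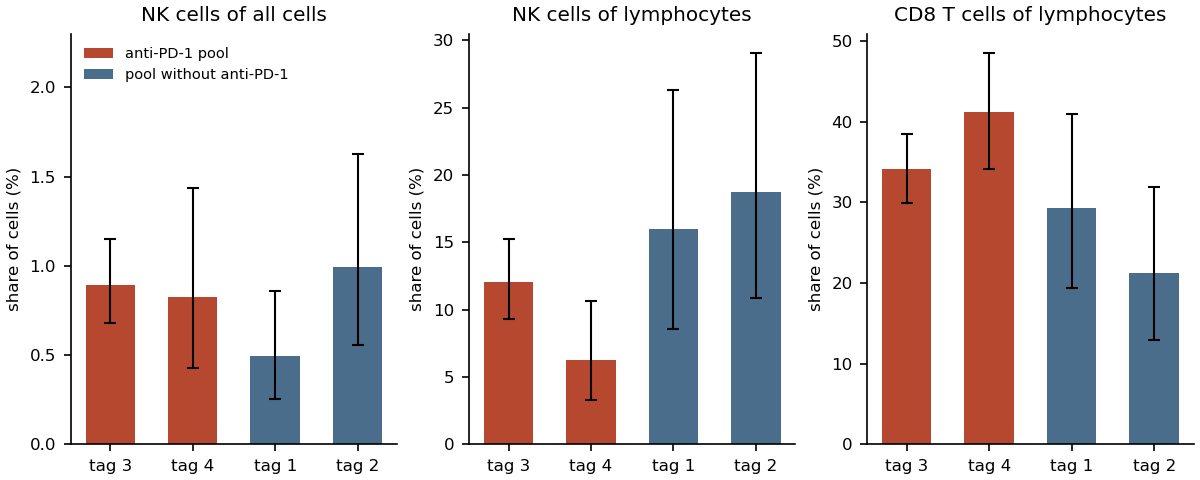
Share of NK cells among all cells and among lymphocytes, and share of CD8 T cells among lymphocytes, for the 2 tags of the anti-PD-1 pool and the 2 tags of the pool without anti-PD-1. Bars are percent of cells and error lines are exact 95% binomial intervals. NK cells of lymphocytes lie at 12.04% and 6.25% in tags 3 and 4 and at 16% and 18.8% in tags 1 and 2.

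Gene levels in NK cells were then compared between pools. A gene was measured if it had at least 30 molecules over the 4 tags, and it was called higher or lower if both tags of one pool lay above both of the other with the nearest tags at least 1.5-fold apart. Of 225 measured genes, 36 (16%) were called higher with anti-PD-1 and 18 (8%) lower, 54 in all (24%), and the median log2 ratio of measured genes was 0.16. Scaling by trimmed means of M values (TMM) moved that median to -0.09 and gave 23 higher and 28 lower, 41 of them among the 54 called before.

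Over all 98 members the genes called higher included cytotoxic and receptor genes. They also included antigen presentation genes, whose molecules lay mostly outside the 82 members. Gzmb stood at 29444 and 73702 CPM in tags 3 and 4, against 2280 and 14148 CPM in tags 1 and 2 (log2 ratio 2.65), and 1 cell held 29.9% of its molecules. Ccl5 stood at 76863 and 65578 CPM in tags 3 and 4, against 27773 and 28143 CPM in tags 1 and 2 (log2 ratio 1.35), and its highest cell held 4.63%. Ctla4 stood at 1122 and 1347 CPM in tags 3 and 4 against 234 and 127 CPM in tags 1 and 2, and Tigit at 3919 and 3746 CPM against 2046 and 1778 CPM.

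The lists are small, and their counts are read beside the 16% of all measured genes called higher. Of 7 measured cytotoxic genes 2 were called higher (Gzmb and Prf1), with a list median of 0.68. Of 9 killer lectin receptors 4 were (Klra1, Klra6, Klra7 and Klrg1), with a median of 1.49, and without Klra7, which the rule used, 3 of 8 with a median of 1.38. Of 5 measured inhibitory receptors, 3 were called higher (Tigit, Havcr2 and Ctla4), and of 7 costimulatory receptors 2 were (Tnfrsf9 and Icos). All 4 measured class II genes, H2-Aa, H2-Eb1, H2-DMa and Cd74, were called higher, with a median of 3.15, and 1 cell held 30.4% of their molecules. Of H2-Aa, the 5 cells without Il2rb and Nkg7 held 50.9% and the 4 large cells with mixed genes 30.5%. The 7 large Gzmb-rich cells held 15.5% and the 82 members 3.14%. Cd74 had 25 molecules in the 5 cells, 12 in the 4, and 0 in the 7 and in the 82. Without members above 2000 molecules the log2 ratio turned to -1.05 for H2-Aa, -0.16 for H2-Eb1, -1.87 for H2-DMa, -1.47 for Ctla4, -0.50 for Tnfrsf9 and -0.59 for Icos, and without cells above the 95th percentile of molecules it was -0.0321 for Klrg1. Of 9 measured fate factors, Zbtb16, which encodes PLZF, was called higher, and Gata3 and Bcl6 lower, and these 3 are named after their values were seen.

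The other lists are read beside the same 16% called higher and 8% called lower. Of 7 measured cytokines and chemokines, Ccl5 was called higher, with a list median of 0.51. Of 9 cytokine receptors 0 were called higher and 2 lower (Il15ra and Il6ra), and the list median was 0.08. Of 5 interferon response genes Irf8 was called higher, and of 8 activating or adhesion receptors Itgb2, the shared chain of the beta-2 integrins, and Cd48. Of 6 proliferation genes Ube2c was called higher while the list median was -0.70, and its log2 ratio turned to -1.60 without the highest cells and to -3.70 with Eomes and Klra7 at 5 or more.

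The lower genes included Cxcl1 and Fn1, of which the 5 cells without Il2rb and Nkg7 held 69.8% and 80.02% of the molecules. Cxcl1 stood at 2451 and 2862 CPM in tags 3 and 4, against 18301 and 77851 CPM in tags 1 and 2, and Fn1 at 4640 and 7155 CPM against 18301 and 33249 CPM. In the 82 members Cxcl1 had 14, 1, 0 and 0 molecules in tags 3, 4, 1 and 2. Markers of 4T1 cells (3 of 3 on the panel measured, 0 called) summed to 63360 and 72397 CPM in tags 3 and 4 against 123253 and 71044 CPM in tags 1 and 2, and macrophage markers (4 of 9 measured, 0 called, Apoe at 0 molecules) to 18184 and 54255 CPM against 56247 and 67996 CPM. Neutrophil markers (3 of 7 measured, 0 called, Cxcr1 at 0 molecules) summed to 20566 and 4125 CPM in tags 3 and 4 against 11343 and 16307 CPM in tags 1 and 2. Without the 5 members lacking Il2rb and Nkg7, 19 genes were called, 14 higher and 5 lower, and 13 of the 19 were among the 54.

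With the highest cell of each gene left out in each tag, 187 genes were measured, 30 (16%) called higher and 4 (2.14%) lower (18.2% together).

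Few of the calls were found again without the 16 large cells. In the 82 members, 166 genes were measured, 6 (3.61%) were called higher with anti-PD-1 and 10 (6.02%) lower (9.64% together), and 5 of these 16 genes were among the 54 called over all members (Ccl9 and Zbtb16 higher, Arl4c, Bcl6 and Gata3 lower). With the highest cell of each gene left out in each tag of the 82 members, 136 genes were measured and these 5 were no longer called. Under TMM in the 82 members Arl4c was not called. Of the 166 genes, a further 29 were called over all members only and 11 in the 82 only. The rest of the 54 had fewer than 30 molecules in the 82 members and could not be called there. The median log2 ratio of the 166 genes was -0.27, and 0 of 6 cytotoxic genes, 0 of 8 killer lectin receptors and 0 of 3 inhibitory receptors were called. The 82 members divide as 53 and 8 cells in tags 3 and 4 and 10 and 11 cells in tags 1 and 2.

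**Figure D5:**
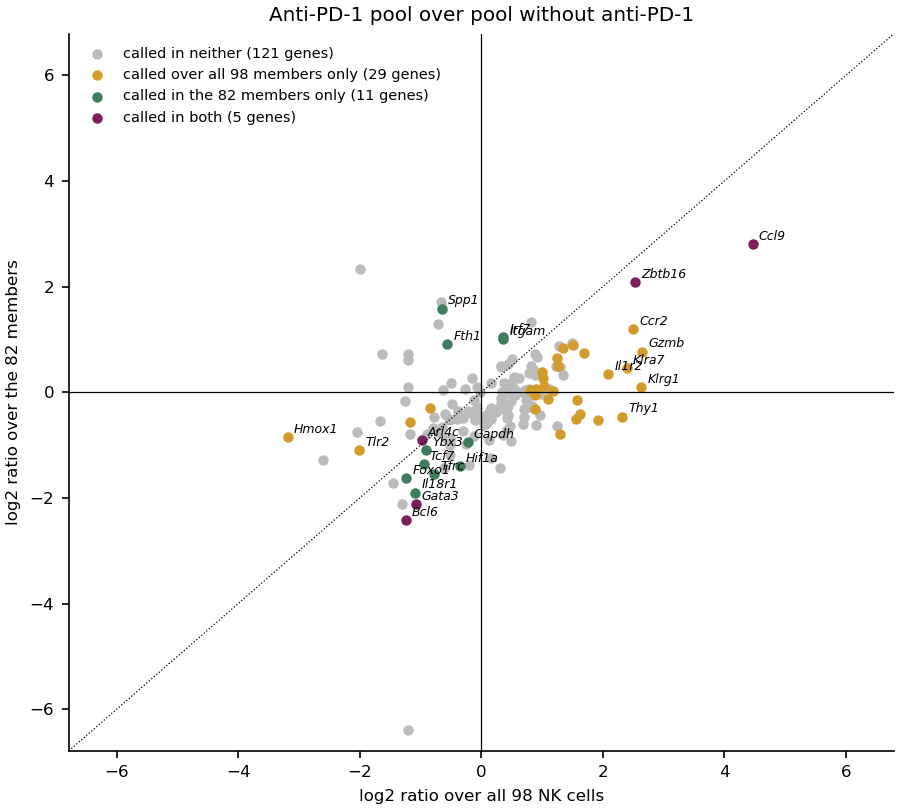
Log2 ratio of levels, anti-PD-1 pool over pool without anti-PD-1, for 166 genes measured in both sets, over all 98 NK cells (horizontal) and over the 82 members with at most 2000 molecules (vertical). The dotted line marks equal ratios. Gzmb lies at 2.65 and 0.77, Klra7 at 2.39 and 0.46 and Klrg1 at 2.63 and 0.10 on the 2 axes, and 5 genes are called in both.

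Gzma, Nkg7 and Tbx21 were close between pools in the 82 members, while Eomes, Ccl5 and Gzmb were further apart. Gzma stood at 65705 and 38169 CPM in tags 3 and 4, against 54043 and 48786 CPM in tags 1 and 2 (log2 ratio 0.01). Nkg7 stood at 25028 and 25738 CPM in tags 3 and 4, against 31806 and 29315 CPM in tags 1 and 2 (-0.27). Tbx21 stood at 2339 and 2632 CPM in tags 3 and 4, against 2425.9 and 2625 CPM in tags 1 and 2 (-0.02). Eomes, used by the rule, made up 0.834% and 1.27% of molecules in tags 3 and 4, against 1.62% and 2.20% in tags 1 and 2 (-0.86), and the pools did not overlap but came within 1.5-fold. Ccl5 stood at 133677 and 176952 CPM in tags 3 and 4, against 64016 and 110479 CPM in tags 1 and 2 (0.83), and the pools did not overlap but came within 1.5-fold. Gzmb stood at 16276 and 9506 CPM in tags 3 and 4, against 5256 and 9845 CPM in tags 1 and 2, with overlap.

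Tcf7, Hif1a, Foxo1, Il18r1, Irf7 and Itgam were called within the 82 members under every setting run there (total scaling, TMM, and without the highest cell of each gene in each tag). They were named after their values had been seen. Tcf7, which encodes TCF1, a factor of less differentiated NK and T cells, stood at 1833 and 1901 CPM in tags 3 and 4, against 5391 and 4157 CPM in tags 1 and 2 (log2 ratio -1.35). Hif1a, the hypoxia factor gene, stood at 1881 and 1901 CPM in tags 3 and 4, against 4313 and 5688 CPM in tags 1 and 2 (-1.40). Foxo1, a factor of lymphocyte quiescence and homing, stood at 651 and 439 CPM against 2156 and 1203 CPM (-1.62), and Il18r1, an IL-18 receptor chain gene, at 603 and 146 CPM against 1482 and 1313 CPM (-1.90). The tag 4 values of Foxo1 and Il18r1 rest on 3 and 1 molecules.

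Irf7 and Itgam were the genes called higher under the same 3 settings. Irf7, an interferon response factor, stood at 2387 and 3364 CPM in tags 3 and 4, against 1482 and 1313 CPM in tags 1 and 2 (1.04). Itgam, which encodes CD11b, an integrin that rises as NK cells mature, stood at 2050 and 2632 CPM in tags 3 and 4, against 1348 and 984 CPM in tags 1 and 2 (1.01). In tags 1 and 2 these levels rest on 11 and 12 molecules of Irf7 and on 10 and 9 of Itgam. With total scaling the nearest tags were 1.61-fold apart for Irf7 and 1.52-fold apart for Itgam, close to the limit of 1.5-fold. Over all 98 members none of these 6 genes was called, and the pools overlapped for 4 of them.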

How the data were processed

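The deposited tables hold counts of molecules per cell and gene, with amplification errors already corrected; the authors ran the BD Rhapsody targeted pipeline 1.12.1, per the file headers. The submitters' processing notes name Seurat 3.2.0, while no aligner or build is stated in the sources used here. Tag 1 has 397 targets for the 396 shared genes (its pair of Tigit targets was summed), and tags 2, 3 and 4 have 468 genes. Totals, shares and CPM use the 396 shared genes, and 72 genes absent from tag 1 are given apart. No cell was filtered and no doublet caller was run.

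Members, gene lists and comparisons were chosen with earlier results of these data known. Molecules were summed per tag, divided by the tag's NK total, and pools compared as equal-weight means of 2 tags. In the call rule a tag without molecules took 3 counts as its floor and could not be the higher one. Shares have exact Clopper-Pearson and sums exact Poisson 95% intervals, and the interval of a difference adds the squared distances to their bounds. Cells are not replicates, and the call rule is one of size and no test. Genes named were the markers, the 4 most abundant of each list, 10 called per direction, 15 by fold over other cells and the 5 most abundant, and others are said to be chosen later. Ly49 sequences were aligned with Biopython 1.88 (Python 3.11.15).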

Additional observations from a re-analysis of the deposited data

Results flagged for a closer look

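Genes counted in tags 2, 3 and 4 alone entered no comparison above. Of these 72 genes, 31 had at least 30 molecules in NK cells, and 6 stood at least 1.5-fold higher in both tags of the anti-PD-1 pool than in tag 2. The ratio of the nearer tag to tag 2 was 4.41 for Gbp6, an interferon-induced GTPase gene, and 4.36 for Egr2, an activation-induced transcription factor gene. It was 2.01 for Gpr18, 1.91 for Cd83, 1.57 for AA467197 and 1.52 for Hmga1b, whose reads may be shared with close copies. Egr2 had 38 and 25 molecules in tags 3 and 4 against 5 in tag 2, and Gbp6 had 41 and 10 against 4. In the other direction, 10 of the 31 genes stood at least 1.5-fold lower in both tags 3 and 4 than in tag 2. Cxcl3 had 674 and 758 CPM in tags 3 and 4 against 23531 CPM in tag 2, where 1 cell held 85.7% of its molecules, and Epcam 2980 and 758 CPM against 5900 CPM. One cell held 50.9% of Cd83 and 44.5% of AA467197. With 1 tag of the pool without anti-PD-1, the spread within that pool is not known.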

How the results depend on the processing

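The difference in the NK share of all cells was 0.117 points, its counting interval included 0 in every setting run, and its sign turned at -0.0501 with Eomes and Klra7 at 2 or more and at -0.132 without tag 1 (-0.132 to 0.365 with 1 tag left out). The NK share of lymphocytes kept both anti-PD-1 tags below the others under every alternative except thinning to 1000 molecules, where the difference was -1.64 points. The count of 54 called genes, of 225 measured (24%), moved with the membership rule and with single cells. The number of measured genes also moved where cells were left out, so the counts do not all share 1 denominator. The count was 24 with Eomes and Klra7 at 5 or more, and 17 without cells above the 95th percentile of molecules of their tag. With the highest cell of each gene left out it was 34 of 187 measured (18.2%, 30 higher and 4 lower). It was 19 without the members lacking Il2rb and Nkg7, and 16 of 166 measured (9.64%) without members above 2000 molecules. With every cell weighted the same it was 29 (9 higher, 20 lower), at a 2-fold limit 28, and with the tags of a pool summed 135. Leaving out 1 tag, which loosens the rule to 3 tags, gave 82 to 111. In the 82 members the count was 16 of 166 measured genes, and 8 of 136 with the highest cell left out. The settings without members lacking Il2rb and Nkg7, without members above 2000 molecules and with equal cell weights, and those of the 82 members, were added after the data were seen.

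Of 90 named genes, only those called higher or lower over all members could be counted as turned, and 13 of them turned direction in at least 1 setting. Uncalled genes could change sign without being counted. Without members above 2000 molecules the log2 ratio was -0.50 for Tnfrsf9, -0.0468 for Dusp2, -1.05 for H2-Aa, -0.16 for H2-Eb1, -1.87 for H2-DMa, -0.53 for Kit, -0.59 for Icos, -1.47 for Ctla4 and 0.14 for Il6ra. Without cells above the 95th percentile it was -0.0321 for Klrg1, -0.44 for Tnfrsf9, -0.00792 for Kit and -0.00504 for Icos. Without the highest cells it was -1.60 for Ube2c, 0.52 for Nrp1 and 0.39 for Thbs1, at 5 or more molecules -3.70 for Ube2c, without members lacking Il2rb and Nkg7 0.12 for Il6ra, and with cells weighted the same -0.0503 for Tnfrsf9. The cause was not tested.

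No paired analysis was possible because each pool is 1 sample and the labels give tags no replicate number. With 12 to 15 NK cells in 3 of the 4 tags, shares carry wide counting intervals and single large cells set many sums.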
